A study of Caenorhabditis elegans with 2 samples.

Results

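The genes described here build the eggshell of Caenorhabditis elegans or act in egg activation, the change from oocyte to embryo that fertilization sets off. The 10 genes were chosen by name from what their products do: cpg-1, cpg-2, cpg-3, cbd-1, egg-1, egg-2, egg-3, chs-1, mbk-2 and perm-2, out of 19973 nuclear protein-coding genes with an annotated start. The choice was made with earlier results of these data known. Binding of EFL-1, a transcription factor of the E2F family, was read at their starts from chromatin immunoprecipitation and sequencing (ChIP-seq). The chromatin came from whole young adult hermaphrodites of strain YL479, a transgenic line with a stable insertion whose EFL-1 ends in a GFP-FLAG tag. Per the sample descriptions the precipitation used an antibody to GFP, although the antibody entry of the labels is efl-1. The study had a single condition with 2 biological replicates, and the possible control experiment named in the labels was not analysed here.

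The eggshell is laid down in layers, in order, from the outside inwards. Its outermost vitelline layer is present on the oocyte and holds CBD-1 and PERM-2, the next layer is chitin made by the chitin synthase CHS-1, and the chondroitin proteoglycans CPG-1 and CPG-2 form the layer inside it. EGG-1 and EGG-2 are related membrane proteins of the oocyte surface that fertilization needs, and EGG-3, a phosphatase-like protein without activity, holds CHS-1 and the kinase MBK-2 at the cortex until the egg is activated. MBK-2 then marks maternal proteins for removal. EFL-1 and its partner DPL-1 are known in worms as regulators of germline genes for oogenesis and early embryos.

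In the lists used here a peak is called reproducible if it is in the authors' optimal list, made with the irreproducible discovery rate (IDR), and its signal value is the authors' own, on a scale that is not stated. The list held 2179 nuclear peaks with signal values from 45.6 to 1895, and these were the strongest 2179 nuclear candidates of the pooled list. Each replicate had a list of candidates of its own, 29968 nuclear candidates in replicate 1 and 29972 in replicate 2. Depth is unknown, since no read counts came with the lists, and each value below is 1 number from the pool or from 1 replicate, with no standard deviation. Whole animals were used, so the tissue in which EFL-1 sat at a gene cannot be read from the lists, and marker genes of a tissue cannot be checked in them. Binding in fewer cells and weaker binding in each cell cannot be told apart.

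EFL-1 had a reproducible peak just upstream of 8 of the 10 genes, all but mbk-2 and perm-2. Over all protein-coding genes the share with a reproducible summit within 500 bp of a start was 8.86%. The 8 genes were the 3 proteoglycan genes, cbd-1, chs-1 and all 3 egg genes, so each layer of the shell from the vitelline layer to the proteoglycan layer had a bound gene. In the vitelline layer this was cbd-1, while perm-2 had no reproducible peak. The summits lay 52 to 231 bp upstream of the nearest start of the gene, far from the limit of 500 bp, and the median of 150 bp was close to that of all 1386 reproducible peaks near starts, 154 bp. All 8 were in intergenic sequence and none had another gene's start within 500 bp, while 29.6% of the reproducible peaks near starts served several genes.

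**Figure D1:**
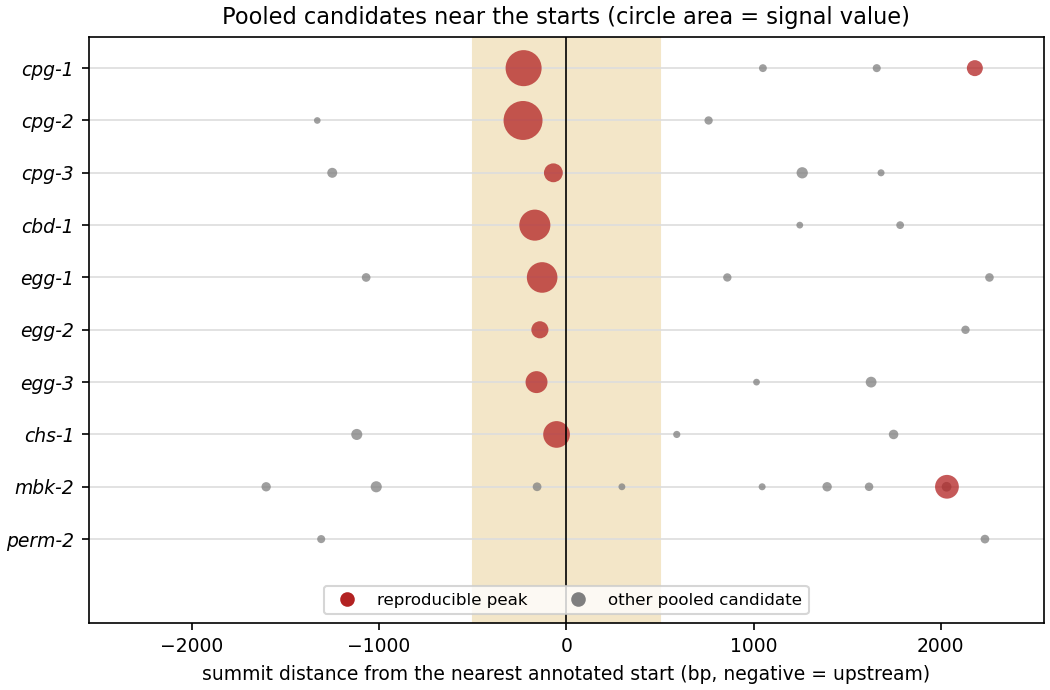
Summits of pooled candidates within 2500 bp of the starts of the 10 genes, by distance in bp from the nearest annotated start of the gene, with circle area in proportion to the deposited signal value and the shaded band marking 500 bp either side. One reproducible peak stands upstream of each of 8 starts, and perm-2 and the starts of mbk-2 have none in the band.

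Sequence around the summits is shown for cpg-1, cbd-1, egg-1 and egg-2, in which an E2F-type string read the same way along the gene, and for egg-3, which had no such string. Each run is 121 bases centred on the pooled summit, from the WBcel235 genome (RefSeq), which is ce11, and is written 5′ to 3′ along the strand of the gene. Capitals mark the strings searched: E2F-type strings, which along these genes read GCGGGAAA or GCGGGAA, the strings TTCGAA and TTTGAA (in reverse TTCAAA) of the cell cycle gene homology region (CHR), and the strings TTTGACC and TTTGATC (in reverse GATCAAA), which were noticed in these windows and are described further on. The windows were chrIII:4489071-4489191 for cpg-1 (plus strand), chrIV:11372763-11372883 for cbd-1 (plus), chrIII:5727991-5728111 for egg-1 (plus), chrIII:7060664-7060784 for egg-2 (minus) and chrII:10884540-10884660 for egg-3 (minus).
cpg-1: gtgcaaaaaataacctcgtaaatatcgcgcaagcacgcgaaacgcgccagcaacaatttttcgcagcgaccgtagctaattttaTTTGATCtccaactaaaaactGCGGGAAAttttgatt
cbd-1: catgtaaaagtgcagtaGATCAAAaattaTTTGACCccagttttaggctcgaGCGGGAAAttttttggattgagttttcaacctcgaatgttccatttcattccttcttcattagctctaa
egg-1: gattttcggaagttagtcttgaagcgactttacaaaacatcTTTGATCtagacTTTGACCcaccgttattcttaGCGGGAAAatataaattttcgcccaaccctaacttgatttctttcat
egg-2: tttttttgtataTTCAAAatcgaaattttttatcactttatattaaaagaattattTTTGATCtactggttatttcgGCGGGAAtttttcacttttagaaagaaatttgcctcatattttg
egg-3: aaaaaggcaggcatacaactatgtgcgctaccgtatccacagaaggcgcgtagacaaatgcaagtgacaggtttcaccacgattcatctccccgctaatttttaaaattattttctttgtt

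The proteoglycan genes cpg-2 and cpg-1 had the strongest peaks of the set. CPG-2 and CPG-1 carry chondroitin chains and bind chitin. The cpg-2 peak, on chromosome III from 7104125 to 7104321 with its summit 231 bp upstream of the start, had a pooled signal value of 389, with 221 in replicate 1 and 167 in replicate 2. It ranked 60 among the pooled peaks, 88 in replicate 1 and 37 in replicate 2. The cpg-1 peak, on chromosome III from 4489044 to 4489257 and 228 bp upstream, had 332, 186 and 153 in the same order and ranked 95, 127 and 51. The 2 genes lie on opposite strands of the same chromosome, and each peak stood high in both replicates.

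The vitelline layer gene cbd-1 and the oocyte surface gene egg-1 followed closely. The cbd-1 peak, on chromosome IV from 11372724 to 11372906 and 168 bp upstream of the start, had a pooled signal value of 247, with 145 in replicate 1 and 119 in replicate 2. The egg-1 peak, on chromosome III from 5727967 to 5728153 and 129 bp upstream, had 239.5, 142 and 98.7. In replicate 1 they ranked 223 and 227, next to each other in the set, and in replicate 2 they ranked 98 and 155. With 1 value per replicate their order cannot be set apart from the spread.

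The chitin synthase gene chs-1, the pseudophosphatase gene egg-3 and the proteoglycan gene cpg-3 held the middle of the set. The chs-1 peak, on chromosome I from 7554739 to 7554860, had its summit 52 bp upstream of the start, the nearest of the 8, and a pooled signal value of 182, with 123 in replicate 1 and 59.1 in replicate 2. The egg-3 peak, on chromosome II from 10884462 to 10884737 and 159 bp upstream, had 123, 79.3 and 50.6. The cpg-3 peak, on chromosome I from 7244730 to 7245005 and 69 bp upstream, had 91.0, 61.0 and 30.4, and ranked 919, 845 and 1152. The signal of cpg-3 was close to the median over the genes with a reproducible peak, 92.8, and those of chs-1 and egg-3 were above it.

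The paralogue of egg-1 gave the weakest peak and the least even one. The egg-2 peak, on chromosome III from 7060586 to 7060861 and 141 bp upstream of the start, had a pooled signal value of 75.0, with 62.7 in replicate 1 and 15.4 in replicate 2. It ranked 803 in replicate 1 but 3374 in replicate 2, beyond the strongest 2179 candidates there, and its −log10 q-value in replicate 2 was 2.55, below the ceiling of 3.75 that the other 7 reached in that list. Its summit in replicate 2 lay 86 bp from the pooled summit, against 0 bp in replicate 1. The ratio of replicate 1 to replicate 2 signal was 4.07 at egg-2 and 1.22 to 2.08 at the other 7 genes. Over the 2147 reproducible peaks matched in both replicates the ratio had a median of 1.70 and a 95th percentile of 3.80, and since the scale is not stated it has no reading as occupancy.

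**Figure D2:**
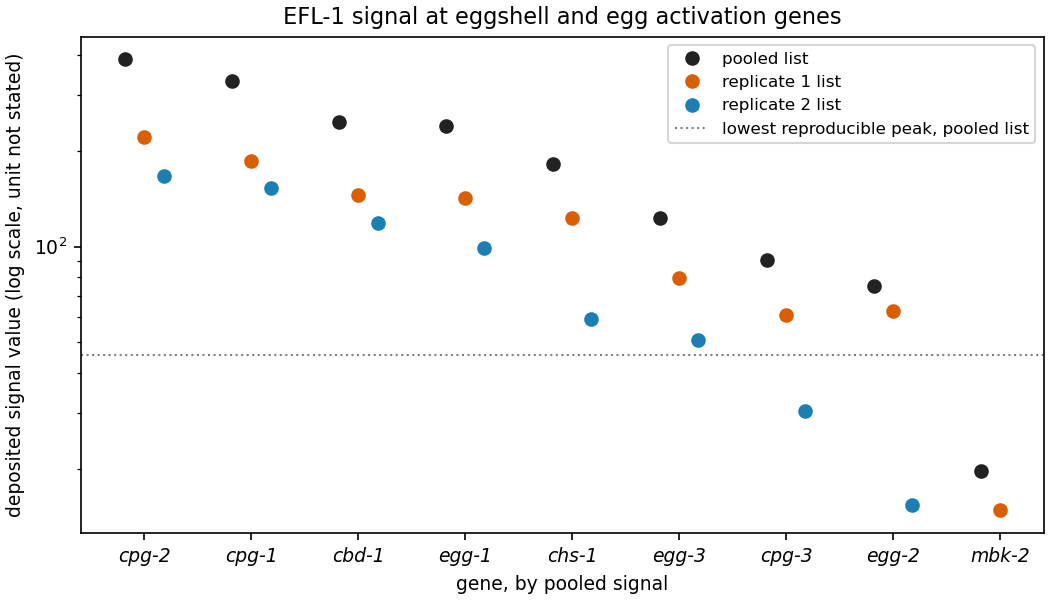
Deposited signal value (log scale, unit not stated) at the peak of each of the 8 genes and at the highest pooled candidate of mbk-2 within 500 bp of a start, with 1 point each for the pooled list, replicate 1 and replicate 2. The dotted line is the lowest reproducible peak of the pooled list, 45.6. The pooled values fall from 389 at cpg-2 to 75.0 at egg-2, and the mbk-2 site matches no candidate in replicate 2.

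The order of the genes was much the same in both replicates. From the strongest down, cpg-2, cpg-1, cbd-1, egg-1, chs-1 and egg-3 stood in this order in the pool and in each replicate, and cpg-3 and egg-2 changed places in replicate 1. All 8 sites overlapped a candidate in both replicates, as did 2147 of the 2179 reproducible peaks, and 7 of the 8 were among the strongest 2179 nuclear candidates of both, all but egg-2. Over all reproducible peaks 69.4% were. The median signal value of the 8 peaks was 211 against 92.8 for the highest peak of each of the 1770 genes with one, and 6 of the 8 lay above that median. Of the 8 peaks, 4 ranked in the strongest 10% of the reproducible list, those at cpg-2, cpg-1, cbd-1 and egg-1, and 5 in the strongest 25%.

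**Figure D3:**
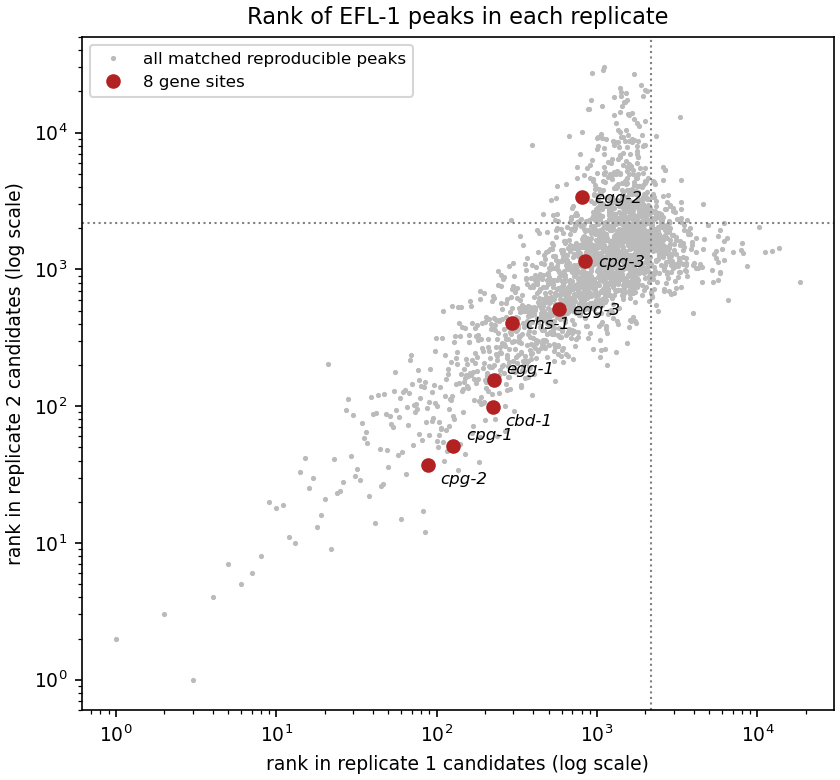
Rank of the highest overlapping candidate in replicate 1 against that in replicate 2 (log scales, rank 1 is the strongest) for all matched reproducible peaks in grey and the 8 gene sites in red, with dotted lines at rank 2179. Of the 8 red points, 7 lie inside both lines, and egg-2 lies above the line of replicate 2.

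The kinase gene mbk-2 had no reproducible peak near any of its 6 annotated starts, but it had one inside the gene. The gene spans 26804 bp on chromosome IV from 13009158 to 13035961. Its highest pooled candidate within 500 bp of a start lay 156 bp upstream of the start at 13026206, with a signal value of 19.6 and rank 9170, and matched a candidate of 14.8 in replicate 1 and none in replicate 2. The nearest candidate of replicate 2 lay 29 bp from another start, with a signal value of 6.30. A reproducible peak lay in an intron from 13029067 to 13029342, with its summit 2033 bp downstream of the nearest start and 20047 bp into the gene. Its pooled signal value was 145, with 89.3 in replicate 1 and 59.0 in replicate 2, and it ranked 470, 487 and 406. No other annotated gene lay within 100 bp of that summit. The 121 bases around it, chrIV:13029145-13029265 on the plus strand, are shown because they hold an E2F-type string, GCGCGAAA along the gene, and the CHR string TTCGAA near the summit, both in capitals.
mbk-2 intron: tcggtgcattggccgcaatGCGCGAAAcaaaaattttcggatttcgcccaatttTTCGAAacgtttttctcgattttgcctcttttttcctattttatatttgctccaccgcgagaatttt

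The vitelline layer gene perm-2 stood apart from the rest. It lies on chromosome IV from 1126790 to 1128865, and no candidate of the pool or of either replicate had its summit within 500 bp of its single start, whereas 38% of all protein-coding genes had a pooled one. The nearest pooled candidate was 1309 bp upstream, with a signal value of 16.7 and rank 13000, and lay on the side of the divergent gene perm-4, which encodes another protein of the vitelline layer. The nearest reproducible peak was 32420 bp away, near the starts of the chaperonin gene cct-8 and of Y55F3AR.2. Among the 10 genes, cpg-1 had a further reproducible peak, past its annotated end and 2182 bp from a start, with a signal value of 65.5 and no protein-coding start within 500 bp.

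Most of the peaks held an E2F-type string close to the summit. The strings searched on both strands were TTTCCCGC, TTTCGCGC, TTTGCCGC and TTTGGCGC, and they stood within 100 bp of the summit at 5 of the 8 genes, cpg-1, cpg-2, cbd-1, egg-1 and chs-1, against 17.2% of all reproducible peaks. With the first T of each left out, the 7 letters that remain, which every longer match contains, were at 6 of the 8, egg-2 being added, against 30.7%. The centre of the longer string was 0.5 bp from the summit at cpg-2, 4.5 bp at cbd-1, 10.5 bp at chs-1, 17.5 bp at egg-1 and 48.5 bp at cpg-1. The gene perm-2, without a reproducible peak near its start, also held a 7-letter string between 250 bases before that start and 50 after. Of all annotated starts 9.4% did so. The same windows at the starts of mbk-2 held none. These are matches of letters, and whether EFL-1 touches them was not measured.

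The E2F-type string was the same word in the same direction at 5 of the genes. Along the gene, cpg-1, cpg-2, cbd-1 and egg-1 read GCGGGAAA and egg-2 read GCGGGAA, so that all 5 sites with this word had it on the strand of the gene. Among the reproducible peaks near starts, 79 had GCGGGAA on the strand of the nearest gene and 76 on the other. In contrast, chs-1 had TTTCGCGC on both strands, overlapping, and egg-3 and cpg-3 had none of the E2F-type strings within 250 bp. The 8 windows were not rich in G and C, with 22.9% at egg-2 to 38.3% at chs-1 and a median of 35.6%, against a median of 40.3% over all reproducible peaks.

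The CHR string, which the DREAM subunit LIN-54 is known to bind, stood at a share of these peaks near that of all peaks. TTCGAA, which is its own reverse complement, or TTTGAA stood within 100 bp of the summit at 5 of the 8 genes, cpg-2, cpg-3, cbd-1, egg-2 and chs-1, against 56.4% of all reproducible peaks. At chs-1 the centre of a CHR string was 5.5 bp from the summit. It was at 3 of 8 within 50 bp, against 35.0% of all peaks, and at 8 of 8 within 250 bp, against 86.1%.

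A further string recurred in these windows. TTTGACC or TTTGATC stood within 100 bp of the summit at 7 of the 8 genes, all but egg-3, against 11.8% of all reproducible peaks, and 12.1% of all annotated starts had it from 250 bases before to 50 after. The mbk-2 start at 13009158, which had no reproducible peak near it, was among these starts. The string was noticed by eye in the windows of cpg-1, cpg-2, cbd-1, egg-1 and egg-2 and then counted, so no test applies. The windows of chs-1 and cpg-3 were not among these, and at chs-1 it lay 67 bp from the summit, past the start at 7554855. In each of the 5 genes that read GCGGGAA it stood before that word on the same strand. The shortest distance between them was 4 bp at cpg-2, 14 bp at cpg-1, egg-1 and egg-2 and 16 bp at cbd-1. The pair in this order was defined from the windows of these 5 genes, so that they hold it was fixed by that choice. With at most 40 bp between its parts, the pair was found at 22 of the 2179 reproducible peaks (1.01%), of which these are 5. With at most 20 bp between them it was found at 14 peaks, and the 5 genes were among them. What binds the string was not tested.

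**Figure D4:**
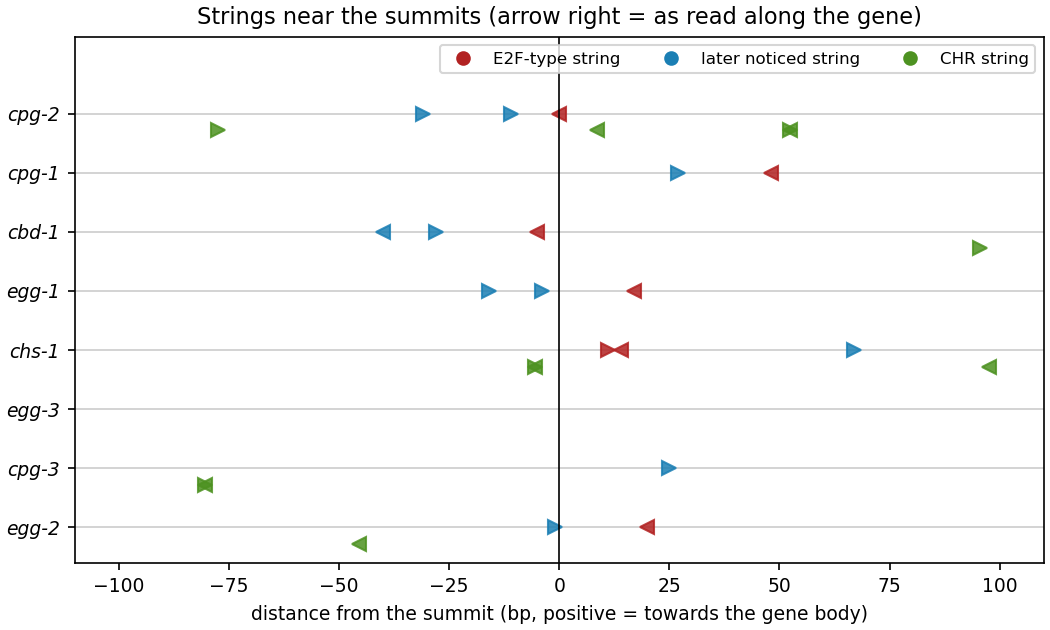
Position of each string within 100 bp of the summit at the 8 genes, in bp from the summit along the gene, with positive values towards the gene body. Arrows to the right are strings as spelled in the text read along the gene, arrows to the left their reverse complements, and CHR strings are drawn lower. At cpg-2, cpg-1, cbd-1, egg-1 and egg-2 a blue arrow stands to the left of the red one, and egg-3 has none.

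Many genes of a wider list around egg activation were bound too, among them cell cycle genes and CCCH zinc finger genes. Of 18 further genes for egg activation, cortical granule release and MBK-2 targets, 11 had a reproducible peak, with a median signal value of 252, to be read against the 8.86% of all genes. Within 200 bp of a start 3 of them had one, against 4.76% of all genes, and within 1000 bp 13 had one, against 11.3%. The pseudophosphatase genes egg-4 and egg-5, whose products bind MBK-2, had 274 and 154. Their coding sequences are nearly identical, and no source used here says how reads that fit both were handled. The genes mex-5, mex-6, oma-1 and oma-2, taken as MBK-2 targets or their close relatives, encode CCCH zinc finger proteins of the oocyte and had 348, 147, 140 and 82.8, and the katanin subunit gene mei-2 had 308. Its partner mei-1, itself a target of MBK-2, had at most 30.8 within 500 bp of a start, below the lowest reproducible peak, although it had a reproducible one within 1000 bp. The cell cycle kinase genes wee-1.3 and cdk-1 had 438 and 47.6, the cyclin gene cyb-3 had 309 and the separase gene sep-1, whose product also acts in cortical granule release, had 252. At cdk-1 no candidate of replicate 2 overlapped the peak.

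Some of the 11 peaks of this list were shared with a neighbour. Of all reproducible peaks near starts, 29.6% served several genes. The peak of mex-5 served rec-8 as well, that of mei-2 syp-6, that of sep-1 nefr-1 and that of cdk-1 iff-1, and which gene of a pair it acts on was not measured. The membrane traffic genes rab-6.1, syx-4 and cav-1 had no pooled candidate within 500 bp of a start. The highest candidates within 500 bp of a start were 34.3 at the cullin gene cul-3, 26.8 at rab-11.1 and 18.7 at mel-26. With the limit at 1000 bp rab-11.1 had a reproducible peak as well.

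The supply and barrier genes with a peak had signal values below the median of genes with one, 92.8. The list of 18 held genes for sugar precursors, chondroitin synthesis and the lipid barrier under the shell, and the vitelline layer gene perm-4. Of these, 4 had a reproducible peak (22.2%, against 8.86% of all genes), with a median signal value of 67.0. They were the glycosyltransferase genes sqv-3 with 86.3, a peak shared with vha-1, and sqv-6 with 83.1, the glutamine-fructose aminotransferase gene gfat-2 with 50.9 and the UDP-glucose dehydrogenase gene sqv-4 with 50.7. Candidates from 12.4 to 29.8, all under the lowest reproducible peak, lay at gna-2, dgtr-1, pod-2, perm-4, sqv-5, emb-8, sqv-8, sqv-7 and sqv-2. The other 5, gfat-1, perm-5, fasn-1, sqv-1 and mig-22, had no pooled candidate. The gene gna-2, which makes the precursor of chitin in the germline, had the highest of these candidates, 29.8.

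On the sperm side of fertilization and among the relatives of the shell genes, the shares with a peak were near the 8.86% of all genes. Of 9 sperm genes 1 had a reproducible peak, spe-9, which encodes a surface protein with EGF repeats, with 89.3. The highest candidates of spe-41 and spe-36 were 18.8 and 18.3, and spe-11, spe-38, spe-42, spe-49 and spe-51 had none. Of 8 relatives and other chitin genes 1 had a reproducible peak, cpg-8 with 60.4. The highest candidate of cpg-4 was 38.9, that of the kinase gene mbk-1, a relative of mbk-2, 26.7, that of lrp-1 18.5 and that of cpg-9 17.0. The second chitin synthase gene chs-2, the chitinase gene cht-1 and cpg-7 had none. No test was made between these lists, whose genes were chosen by function and with earlier results of these data known.

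**Figure D5:**
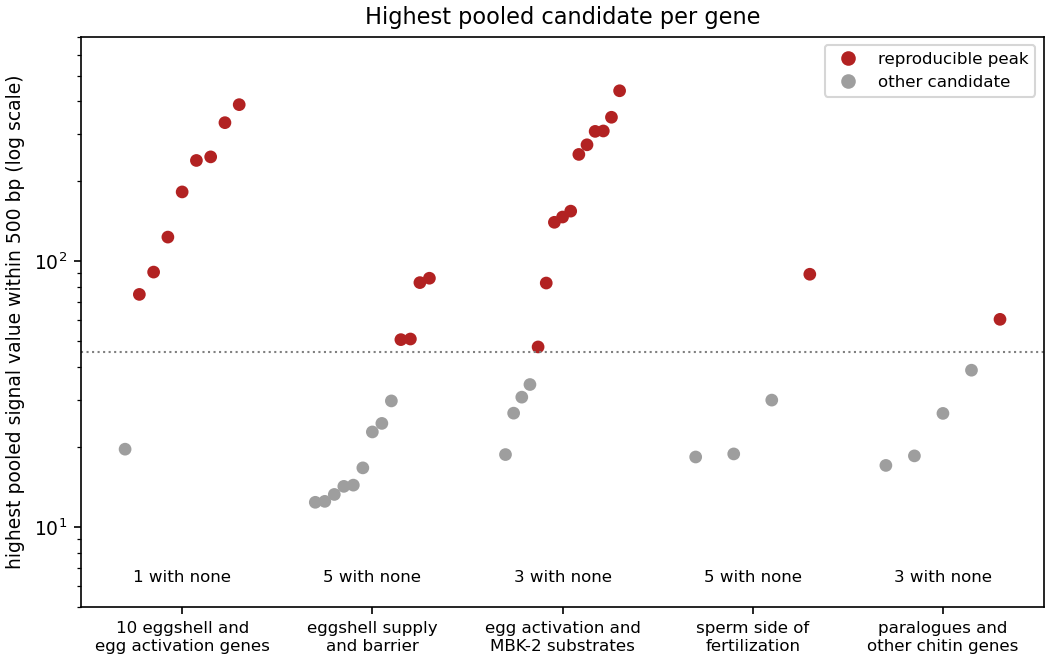
Highest pooled signal value within 500 bp of a start (log scale) for each of the 10 genes and each gene of the 4 further lists, in red where the peak is reproducible, with the number of genes without any pooled candidate written below. The dotted line is the lowest reproducible peak, 45.6. Red points reach 438 in the egg activation list and 86.3 in the supply and barrier list.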

How the data were processed

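The data were peak lists in narrowPeak layout on build ce11, as deposited. Per the descriptions deposited with the files, each replicate list and the pooled list hold peaks and background meant as input for IDR, derived from the alignments and 1 control, and the optimal list was derived from these 3. Column 7 was taken as the authors' signal value and column 9 as the authors' −log10 q-value. For the aligner, the peak caller, the IDR cutoff and the handling of reads with more than 1 match, nothing is stated in the sources used here. Lists on ce10 were not used.

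Summits were compared with the starts of protein-coding transcripts in Ensembl release 115 (WBcel235, the same assembly as ce11), and positions are counted from base 1. Mitochondrial peaks were left out. A gene was called bound with a reproducible summit at most 500 bp from a start. Peaks that overlap by at least 1 bp were matched between lists, the strongest first. Ranks are within a list. Strings were searched in the RefSeq genome, 100 bp either side of a summit.

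There is 1 group, so nothing was tested, and lists are described by counts beside the share of all genes. The genes and lists were chosen with earlier results of these data known. All 10 genes, the list genes with a pooled candidate and each gene that shares a peak are named, except for an item that is not reported here; of the list names, trp-3, cpg-5 and cpg-6 matched no gene in the annotation. Distances and searches were tested on simulated data. Python 3.11.15, numpy 2.4.6 and pandas 2.3.3 were used.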

Additional observations from a re-analysis of the deposited data

How the results depend on the processing

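The number of the 10 genes with a reproducible peak was 8, and 6 to 8 under the other settings. The shares of all genes given for other settings are over distinct gene names. On that base the main setting gave 8.91%, against 8.86% over the 19973 genes. At 200 bp, where 4.76% of all genes had a peak, cpg-1 and cpg-2 dropped out, and with the stronger 50% of the peaks, where 5.34% had one, egg-2 did. At 1000 bp it was 8, against 11.3% of all genes. With the strongest candidates of replicate 1 alone it was 8, against 8.99% of all genes. With those of replicate 2 alone it was 7, against 8.32%, egg-2 being lost. The counts in the further lists moved more. At 200 bp 3 genes of the egg activation list, 2 of the supply and barrier list, 0 of the sperm list and 0 of the relatives were bound, to be read against the same 4.76%. With the stronger 50% of the peaks 2 supply and barrier genes and 0 relatives were bound. With 1 replicate alone the range was 9 to 11 for egg activation genes, where replicate 2 lost cdk-1 and oma-2. For supply and barrier genes it was 3 with either replicate, but replicate 1 lost gfat-2 and replicate 2 lost sqv-3. For sperm genes it was 1 with either replicate. For relatives it was also 1, where replicate 2 gave cpg-4 in place of cpg-8. These counts are to be read against the same 8.99% and 8.32% of all genes. The median rank of the 8 sites was 252 in the pool and 261.5 to 279.5 in the replicates. With summits at most 50 bp apart 7 of the 8 sites matched in both replicates, all but egg-2. Over all reproducible peaks 92.2% had such a summit in replicate 1 and 87.7% in replicate 2. With overlap of at least 50% of both intervals it was also 7, all but chs-1, whose overlap in replicate 2 was 44.2%. The share of all peaks was not counted for that rule. CHR strings stood at 3 of 8 sites within 50 bp and 8 within 250 bp, against 35.0% and 86.1% of all peaks. The gap of the paired strings was varied after seeing the data. No paired analysis was possible because there is 1 group. Depth is unknown and no control list was used, so weak candidates cannot be told from background.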

Other observations

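The ordered pair of strings seen at the shell genes, TTTGACC or TTTGATC and then GCGGGAA on the same strand, was at 17 other reproducible peaks, of which 12 had a protein-coding start within 500 bp. The strongest was at the kinetochore gene hcp-1, with a signal value of 576 and 38 bp between the parts. At puf-5, which encodes an RNA-binding protein of the oocyte, it occurred 3 times, the closest with 4 bp between the parts as at cpg-2, and the signal value was 234. The kinesin genes klp-16 and klp-15 had 273 and 171, ppw-1, an Argonaute gene, had 211, and cdc-25.3, a phosphatase gene, had 82.3. The other nearest genes were C50E3.11, T12G3.6, cysl-3, natc-3, ZK892.6 and fbxb-97. None of the 17 genes with a peak in the further lists had the pair, which is near its share of 1.01% over all reproducible peaks. Of the 17, 5 had TTTGACC or TTTGATC, namely gfat-2, egg-4, oma-2, mex-5 and cpg-8, against 11.8% of all reproducible peaks. These genes were named after their windows were searched.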
